A study of Mus musculus with 30 samples.

Results

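The minor D segments of the mouse heavy-chain (Igh) locus, Ighd5-2 to Ighd5-8 and Ighd6-1, were followed in bone marrow pro-B cells by their joins to JH. They were defined by position: 8 Ighd5-like sites and 1 Ighd6-1 site on chromosome 12 of the bone marrow alignment target, with every junction within 100 bp of a site taken as a join of that member. The 9 sites are members of 26 D segments that carried joins, and they held 5244 of 458755 D joins and of 1139295 junctions in 18 libraries. The assay was HTGTS-V(D)J-seq, in which a primer at JH4 serves as the bait and the genomic sequence joined to JH4 is read. The pro-B cells were sorted as B220+ IgM- CD43+ from 129SV mice, 3 libraries for each of 6 genotypes of IGCR1, the intergenic control region between the V and D segments, which carries the CTCF-binding elements CBE1 and CBE2. The genotypes were WT, CBE12mut (CBE1&2-/-), CBE1mut (CBE1-/-), CBE1inv (CBE1inv/inv, the element inverted on both alleles), CBE2mut (CBE2-/-) and CBE2inv (CBE2inv/inv). The labels give no age, and do not say whether the 3 libraries of a genotype came from separate animals, so p-values measure the spread between libraries.

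RAG cuts at recombination signal sequences, each made of a heptamer, a spacer and a nonamer, that flank the V, D and JH segments. A D segment has such a signal on both sides: the one facing JH is used for the D to JH join, which comes first, and the one facing V for the later V to DJH join. IGCR1 is known to insulate the D and JH region from the V segments, and with mutated CBEs the D-proximal V segments rearrange early. D segments annotated as pseudogenes, as all of the Ighd5 and Ighd6 segments named here are in RefSeq, are known mainly as seldom used elements between the functional D segments.

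The members are given here as 3 kinds. Short and long copies were parted by sequence, and Ighd6-1 was set apart from the long copies by its name and site. It differed from the listed long copies by 11 to 13 edits in 150 bases. One example of each kind is shown with a functional D of the Ighd2 family (Ighd2-8) and with Ighd1-1, the functional D at the V-facing end of the main array. Each line runs 5′ to 3′ toward JH, with the nonamer and heptamer of the V-facing signal, the coding part, and the heptamer and nonamer of the JH-facing signal. Capitals mark heptamers and nonamers, with spacers and coding bases in lower case, at the place where the annotated D ends put them. Sequences are those of the bone marrow reads, except that the JH-facing signal of Ighd6-1 was read from mm9.
short copy 3: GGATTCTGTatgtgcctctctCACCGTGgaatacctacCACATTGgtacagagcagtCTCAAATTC
long copy 4: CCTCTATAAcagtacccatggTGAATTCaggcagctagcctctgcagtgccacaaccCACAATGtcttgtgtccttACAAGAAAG
Ighd6-1: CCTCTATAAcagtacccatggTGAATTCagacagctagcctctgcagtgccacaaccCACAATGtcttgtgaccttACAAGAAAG
Ighd2-8: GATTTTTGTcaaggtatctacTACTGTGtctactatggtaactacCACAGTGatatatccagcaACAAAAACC
Ighd1-1: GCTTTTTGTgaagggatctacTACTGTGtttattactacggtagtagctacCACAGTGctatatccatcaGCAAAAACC

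The short copies have 10 coding bases, and the long copies and Ighd6-1 have 29. On the JH side, the short copies matched the consensus heptamer CACAGTG at 6 of 7 bases and the consensus nonamer ACAAAAACC at 4 or 5 of 9. The long copies and Ighd6-1 matched that heptamer at 6 of 7 bases and that nonamer at 6 of 9. Ighd2-8 matched at 7 of 7 and 9 of 9, and Ighd3-2, the functional D on the JH side of short copy 1, at 5 of 7 and 7 of 9. On the V side, the short copies matched CACTGTG at 6 of 7 bases and GGTTTTTGT at 7 of 9. Ighd2-8 had 6 and 8 there, and Ighd3-2 had 6 and 7. The long copies and Ighd6-1 had 1 of 7 and 3 of 9 there, so that no signal of the usual form borders the annotated V-side end of their coding part. These counts describe letters only. For short copies 1 and 2, long copies 1, 2 and 3 and Ighd6-1, the JH-facing signal was taken from mm9. Their JH-side counts therefore describe the closest mm9 segment, and likeness between these copies on that side was not read from the bone marrow libraries.

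The sites follow the repeat of the D array. On chromosome 12 of the target, a short copy lies at 114689024, 114694479, 114699139 and 114704133 (short copies 1 to 4) and a long copy at 114698902, 114703898, 114708573 and 114713223 (long copies 1 to 4). Each long copy lies 235 to 244 bp on the JH side of a short copy, and each of the 4 short copies lies 1262 to 1268 bp on the JH side of a functional D of the Ighd2 family. Ighd6-1, at 114732515, is 2029 bp on the JH side of Ighd1-1 at 114734544. The 129 array holds more copies than the annotated C57BL/6 array, so the copies are numbered here by type and order and not given single C57BL/6 names. The long copies were closest to Ighd5-7, with 4 to 6 edits, and the short copies to Ighd5-4, Ighd5-5 or Ighd5-6, with 3 to 7. Over 150 bases of the target, pairs of the listed long copies differed by 4 to 8 edits and pairs of the listed short copies by 3 to 15. With copies of the same types outside the listed sites added, the medians were 7.5 for long and 14 for short pairs, and the lowest values 4 and 2. The deposited alignment therefore decided which copy of a type received a read. Sums over the listed copies of a type rest on it as well as single copies, because copies outside the listed sites can be as close. Short copy 3 differed by 2 edits from the short copy outside them at 114713460, and by 13 from short copy 1.

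The libraries held 11105 to 98682 junctions and 5844 to 60262 D joins. Read names placed WT, CBE12mut, CBE1mut and CBE1inv in 1 sequencing run and CBE2mut and CBE2inv in another, with 11105 to 41433 junctions a library in the second, so the CBE2 genotypes and the run cannot be told apart. Lines that repeated a read sequence made up 9.26% to 19.8% of the first run and 19.5% to 43.9% of the second, and no line was marked as a duplicate. Reads of a PCR product are not independent molecules, so intervals here cover counting error only.

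In WT cells, minor D segments made up less than 1% of D joins, and Ighd6-1 alone gave more of them than the 8 Ighd5-like copies together. The 3 WT libraries had minor shares of D joins of 0.917%, 0.774% and 0.788%, with 95% Wilson intervals of 0.836% to 1.01%, 0.689% to 0.870% and 0.721% to 0.862%. Ighd6-1 held 291, 180 and 281 of these joins, the 4 long copies 140, 94 and 160, and the 4 short copies 16, 5 and 34. As shares of D joins, these were 0.521% ± 0.0680, 0.271% ± 0.0141 and 0.0344% ± 0.0213 (SD, n = 3). The order Ighd6-1, long, short held in each WT library, without overlap. Within the long type the copies gave similar shares, from 0.0486% ± 0.0158 for long copy 3 to 0.0836% ± 0.0278 for long copy 4, with overlapping libraries. Short copy 2 gave 1 join in all 3 WT libraries. By comparison Ighd1-1, the most used D in WT, gave 22.1% ± 1.10 of D joins.

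In CBE12mut cells, minor D segments took a 4-fold larger share of D joins than in WT. The CBE12mut libraries had minor shares of 3.99%, 2.94% and 2.93%, with Wilson intervals of 3.60% to 4.42%, 2.60% to 3.32% and 2.66% to 3.21%. All 3 lay above the 3 WT libraries, and the means were 3.29% ± 0.610 and 0.827% ± 0.0789, a ratio of 3.98. With distinct junctions the ratio was 1.60, again without overlap. The difference of 2.46 percentage points had an exact two-sided permutation p of 0.1, which is the smallest that 3 against 3 libraries can give, and 0.233 after Benjamini-Hochberg adjustment over the 7 comparisons. Over the 4 genotypes of the WT run, the variance between genotypes gave p = 0.00028 in a permutation test with 100000 draws.

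The kinds did not move by the same factor. The listed short copies went from 55 joins in WT to 165 in CBE12mut, and their share of D joins from 0.0344% to 0.519% ± 0.0377, or 15.1 times. With the short copies outside the listed sites added, the pooled share went from 0.132% (191 joins) to 1.02% (325 joins), a smaller factor. The long copies went from 394 joins to 623, and from 0.271% to 2.01% ± 0.388, or 7.41 times. Libraries of both genotypes were apart for both types. Ighd6-1 went from 752 joins to 240, and its share from 0.521% to 0.758% ± 0.286, with 0.498% to 1.06% in CBE12mut against 0.466% to 0.597% in WT, so that the ranges overlapped. The order of the kinds thereby changed, with the long copies above Ighd6-1 in each CBE12mut library. The ratios were not compared with each other by a test. Reads counted once per sequence gave 15.7 times for the short copies and 7.59 times for the long. Counted once per library, junction and bait end, the ratios were 3.99 and 2.53 with libraries still apart, and Ighd6-1 was at 0.625 times its WT share, with all CBE12mut libraries below WT. In WT, the 32007 joins of Ighd1-1 lay at 1315 distinct junctions and the 752 of Ighd6-1 at 143, so Ighd1-1 repeated junctions more. D joins were fewer in CBE12mut. Whether shares by distinct junctions move with the number of D joins was not tested.

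**Figure D1:**
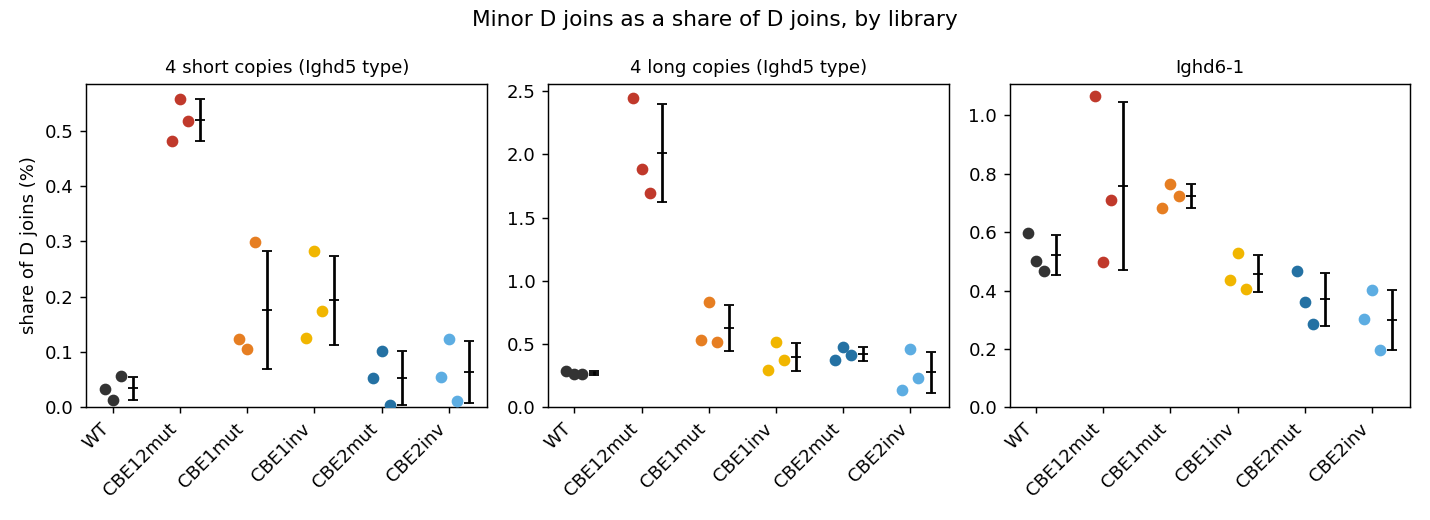
Share of D joins (%) at the 4 short copies, the 4 long copies and Ighd6-1 in each library (points) with the mean and SD of 3 libraries (black), by genotype. CBE12mut lies above WT without overlap for short and long copies (means 0.519% and 2.01%), and overlaps WT for Ighd6-1.

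Set against all junctions of a library, the minor joins differed far less between WT and CBE12mut, while functional D joins were fewer in CBE12mut. Minor D joins per 100000 junctions were 524 ± 40.5 in WT and 423 ± 65.7 in CBE12mut. Short copies had 22.2 ± 14.7 and 67.3 ± 9.65, long copies 172 ± 8.61 and 258 ± 34.7, and Ighd6-1 329.6 ± 31.3 and 97.9 ± 35.1. Over the same libraries, Ighd1-1 went from 14043 ± 1186 to 312 ± 68.5 per 100000. D joins numbered 36045 to 60262 a library in WT and 8432 to 14491 in CBE12mut, while the totals of junctions overlapped. The direction of the change in the minor share therefore depends on the denominator: as a share of all junctions the CBE12mut minus WT difference was -0.101 percentage points, and as a share of V plus D joins -0.108.

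The fit over all segments (limma voom, for segments that reached 10 junctions in 3 or more libraries, Benjamini-Hochberg adjustment, threshold 0.05) tested 169 segments and 8 of the 9 members, leaving out short copy 2. With library size set to all junctions, 4.14% of the segments were called higher in CBE12mut than in WT and 86.4% lower, and of the 8 members 2 were higher and 1 lower. Short copy 1 rose (log2 change 2.06 ± 0.90 SE, adjusted p = 0.0301) and long copy 4 rose (0.94 ± 0.40, adjusted p = 0.0268), while Ighd6-1 fell (-1.80 ± 0.28, adjusted p = 2.79e-07). The call of short copy 1 was lost without WT replicate 2 or 3 or CBE12mut replicate 2 or 3, and that of long copy 4 without WT replicate 1 or 2 or CBE12mut replicate 1. Without 1 library at a time, 1 to 4 members were called. The median change was 0.93 for the tested members, -2.13 for the 13 functional D segments and -2.03 for all 169 segments. With library size set to D joins, 11.8% of the segments were called higher and 1.78% lower, and 7 of the 8 members were higher and 0 lower. The median change was then 3.21 for the tested members, 0.20 for the functional D segments and 0.27 for all segments. Short copy 2 was at 8, 9 and 6 joins in CBE12mut and at 0, 1 and 0 in WT.

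Relative to D joins, each Ighd5-like member that could be tested rose. Long copy 4 had 95, 56 and 95 joins in CBE12mut and 28, 29 and 68 in WT, or 0.795% ± 0.234 and 0.0836% ± 0.0278 of D joins, and changed by 3.22 ± 0.45 (log2, adjusted p = 3.77e-06). Long copy 2 had 43, 40 and 65 joins in CBE12mut against 30, 26 and 22, or 0.468% ± 0.0175 and 0.0567% ± 0.0183, and changed by 3.14 ± 0.47 (adjusted p = 8.26e-06). Long copy 3 had 59, 33 and 54 joins against 27, 11 and 36, and changed by 3.19 ± 0.48 (adjusted p = 9.65e-06). Shares of these 3 copies did not overlap between the genotypes. Long copy 1, the copy nearest to JH of its type, changed least of the 4, with 21, 30 and 32 joins against 55, 28 and 34 and a change of 1.74 ± 0.46 (adjusted p = 0.00946).

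Among the short copies, with fewer reads, short copy 1 had 8, 18 and 25 joins in CBE12mut against 13, 2 and 1 in WT and changed by 4.39 ± 0.98 (adjusted p = 0.00163). Short copy 4 had 18, 18 and 12 joins against 2, 2 and 23, and changed by 3.59 ± 1.04 (adjusted p = 0.0184). Short copy 3 had 9, 2 and 32 joins against 1, 0 and 10, and changed by 4.42 ± 1.31 (adjusted p = 0.0213). Without 1 library at a time, 5 or 6 members were called. The call of short copy 3 was lost without WT replicate 1 or 2 or CBE12mut replicate 3, that of short copy 4 without WT replicate 1 or 2 or CBE12mut replicate 1 or 2, and that of long copy 1 without WT replicate 3 or CBE12mut replicate 2. Distinct junctions were few as well, at 7 to 11 in CBE12mut and 5 in WT for each of these 3 short copies. With distinct junctions counted, 4 members could be tested and 2 were called higher, long copies 3 and 4, where 8.33% of 144 segments were called higher and 9.03% lower. Ighd6-1 did not pass (0.50 ± 0.30, adjusted p = 0.357).

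**Figure D2:**
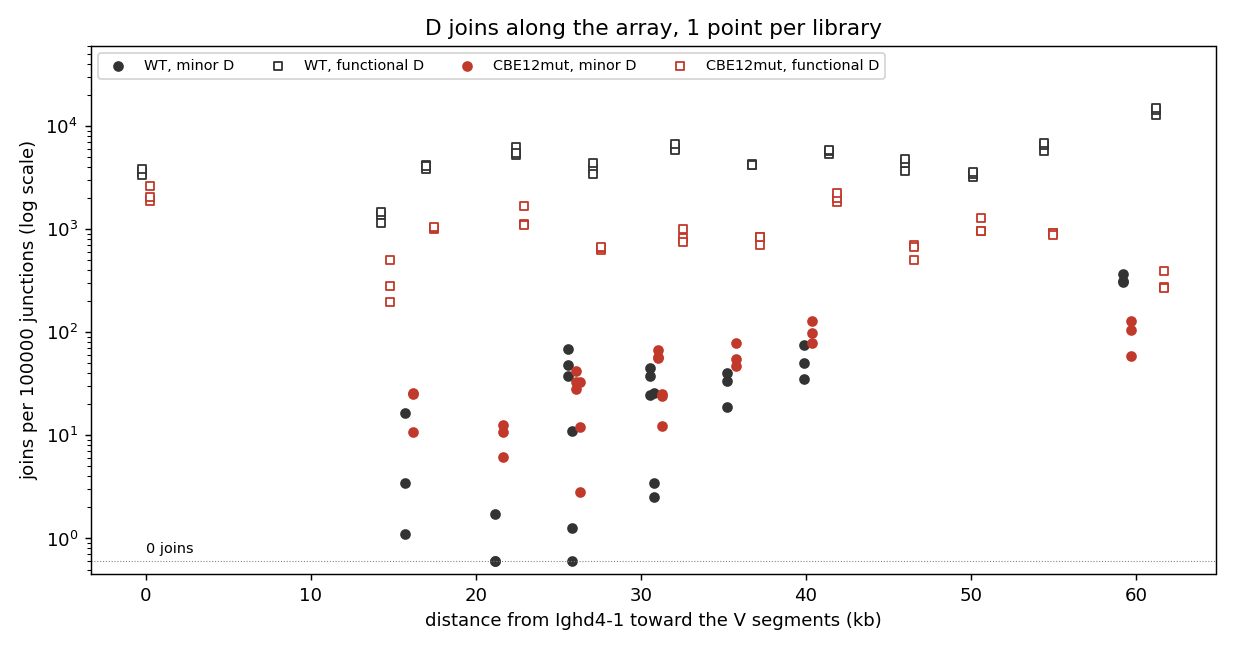
Joins per 100000 junctions (log scale) for each D segment of the main array against its distance from Ighd4-1 (kb), 1 point per library of WT (black) and CBE12mut (red), with minor D filled, functional D open and 0 joins drawn on the dotted line. The functional D segments plotted lie lower in CBE12mut, as does Ighd6-1 (329.6 and 97.9 on average), while the libraries of long copies 2, 3 and 4 and of short copy 2 lie above those of WT and those of the other copies overlap.

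The neighbouring functional D segments give a local measure. Members were set against the nearest functional D on each side, 9 segments in all. Minor joins per 100 neighbour joins were 1.12, 0.956 and 0.975 in WT and 6.32, 4.53 and 4.70 in CBE12mut, without overlap (1.02 ± 0.0913 and 5.18 ± 0.989, exact p = 0.1, 0.233 after adjustment over the 7 comparisons). With each kind set against its own neighbours only, the short copies went from 0.102 ± 0.0639 to 1.62 ± 0.149 and the long copies from 0.669 ± 0.00891 to 4.62 ± 0.984. Ighd6-1, whose neighbours are Ighd2-3 and Ighd1-1, went from 1.63 ± 0.297 to 8.03 ± 2.85. The libraries of both genotypes were apart for all 3 kinds. Ighd1-1 itself went from 22.1% to 2.38% of D joins, so the ratio of Ighd6-1 moves with that neighbour.

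The other D segments moved in both directions. Scaled to D joins in CBE12mut, 4 of the 13 functional D segments were called higher and 3 lower. Ighd4-1, the D nearest to JH, rose by 1.58 ± 0.07 (log2, adjusted p = 1.74e-15) and Ighd1-1 fell by 3.19 ± 0.27 (adjusted p = 2.89e-10). Ighd3-1, a functional D apart from the main array on its V side, went from 9 joins in WT to 864 in CBE12mut. The 9 functional neighbours of the members had shares of 0.108 to 1.78 times WT in CBE12mut.

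**Figure D3:**
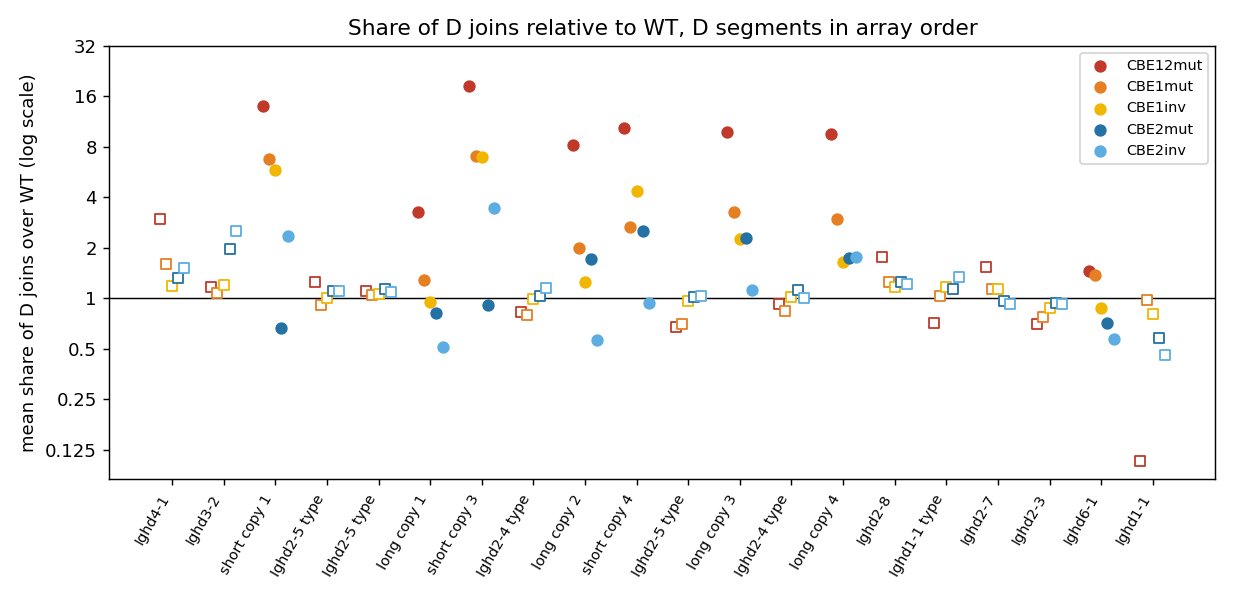
Mean share of D joins divided by the WT mean (log scale) for D segments in array order, by genotype, with minor D filled and functional D open. Short copy 2 is left out because WT held 1 join, and a member with 0 joins in a genotype has no point. In CBE12mut the Ighd5-like copies lie at 3.29 to 18.5 times WT, and the functional D segments shown at 0.108 to 2.98.

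CBE1 alone gave a smaller change of the same sign. CBE1mut libraries had minor shares of 1.34%, 1.71% and 1.54%, all above WT, with a mean of 1.53% ± 0.186 and a difference of 0.701 percentage points (exact p = 0.1, adjusted 0.233). Short copies were at 0.176% ± 0.106 and long copies at 0.628% ± 0.181, or 5.13 and 2.32 times WT, and Ighd6-1 at 0.723% ± 0.0425, or 1.39 times. With the short copies outside the listed sites added, the pooled short share was 0.298% in CBE1mut and 0.132% in WT, a smaller factor. By reads, all 3 kinds were above WT in each CBE1mut library, but by distinct junctions Ighd6-1 was at 0.921 times WT and overlapped it. With distinct junctions the minor share was 1.14 times WT, with all 3 libraries still above. As a share of all junctions the difference was again of the other sign, at -0.1165 percentage points. In the fit scaled to D joins, 6.51% of segments were called higher and 1.78% lower, and of the 8 members 1 was higher and 0 lower: long copy 3 (1.66 ± 0.51, adjusted p = 0.0400), which had 29, 23 and 45 joins. That call was lost with distinct junctions and without any 1 of WT replicates 1, 2 and 3 and CBE1mut replicates 1 and 3. Scaled to all junctions, 2.37% of segments were called higher and 59.2% lower, and Ighd6-1 was the member that fell (-0.77 ± 0.25, adjusted p = 0.00985).

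With CBE1 inverted, the minor share as a whole overlapped WT, while by reads the short and the long copies lay above it. CBE1inv libraries had shares of 0.858%, 1.33% and 0.957%, with a mean near that of WT (1.05% ± 0.248, difference 0.222, exact p = 0.2, adjusted 0.35). The difference was 0.0814 without CBE1inv replicate 2 and 0.317 without CBE1inv replicate 1. Short copies were at 0.194% ± 0.0803, or 5.63 times WT, with 55, 141 and 83 joins against 16, 5 and 34, and all 3 libraries lay above WT in share. With the short copies outside the listed sites added, the pooled short share was 0.363% in CBE1inv and 0.132% in WT, a smaller factor. Distinct junctions of the listed short copies numbered 46 in CBE1inv and 16 in WT. Long copies were at 0.398% ± 0.113, or 1.47 times WT and above it in all 3 libraries, and Ighd6-1 was at 0.457% ± 0.0631, overlapping WT. In the fit, 1 member was called at either scaling, short copy 1, with 37, 40 and 16 joins (2.68 ± 0.85 scaled to all junctions, adjusted p = 0.0332; 3.05 ± 0.94 scaled to D joins, adjusted p = 0.0469). Of all segments, 2.96% and 4.73% were called higher at these scalings, and 6.51% and 2.37% lower. The call was lost at both scalings without any 1 of WT replicates 1, 2 and 3 and CBE1inv replicates 1 and 2. CBE1inv lay below CBE1mut in the minor share in each library, by 0.480 percentage points on average (exact p = 0.1, adjusted 0.233). With distinct junctions this difference was -0.0877 (exact p = 0.6), and the libraries overlapped. No member was called between them by limma voom at either scaling. Of all segments, 40.8% were called higher and 2.96% lower scaled to all junctions, and 0.592% and 4.73% scaled to D joins. No member had an unadjusted p under 0.05 at the first scaling, and 1 member, Ighd6-1, had one at the second (0.0289).

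In the CBE2 genotypes, from the other run and with fewer reads, the minor share of D joins overlapped WT by reads. It lay below WT by distinct junctions, a measure whose dependence on the number of D joins was not tested. CBE2mut libraries had 0.895%, 0.941% and 0.701% (0.846% ± 0.127, difference 0.0194, exact p = 0.9). CBE2inv libraries had 0.496%, 0.982% and 0.438% (0.639% ± 0.299, difference -0.188, exact p = 0.4). Both overlapped WT, and the difference between them was -0.207 (exact p = 0.4). Without CBE2inv replicate 2, the one CBE2inv library above the WT range, the CBE2inv difference was -0.359 (exact p = 0.1), and without replicate 3 it was -0.0874, without replicate 1 -0.1165. With each distinct junction and bait end counted once, the differences from WT were -0.682 for CBE2mut and -0.984 for CBE2inv, with all 3 libraries of each below WT (exact p = 0.1 for each, the smallest possible). All of these libraries held fewer D joins than the WT libraries, so genotype and depth cannot be told apart in this measure. As a share of all junctions, the CBE2inv difference was -0.221 (exact p = 0.1) and that of CBE2mut -0.1084 (exact p = 0.2). Depth limits this comparison, since the 3 CBE2inv libraries held 36 to 152 minor joins and the 3 CBE2mut libraries 55 to 155. The long copies were at 0.422% ± 0.0523 in CBE2mut, above WT in all 3 libraries, but not with distinct junctions. Ighd6-1 was at 0.300% ± 0.103 in CBE2inv, below WT in all 3. In the fit scaled to all junctions, Ighd6-1 was the 1 member called in CBE2mut (-0.91 ± 0.31, adjusted p = 0.0408, with 5.33% of segments called higher and 6.51% lower) and in CBE2inv (-1.13 ± 0.33, adjusted p = 0.0265, with 2.37% called higher and 2.37% lower). The CBE2mut call was lost without any 1 of WT replicates 1, 2 and 3 and CBE2mut replicates 2 and 3, and the CBE2inv call without WT replicate 1 or any 1 of the 3 CBE2inv replicates. Scaled to D joins, 7.10% of segments were called higher and 1.18% lower in CBE2mut, and 5.92% and 0.592% in CBE2inv. No member was called in either by limma voom at that scaling, with 1 member each at an unadjusted p under 0.05, long copy 3 in CBE2mut (0.0491) and Ighd6-1 in CBE2inv (0.0390). Between CBE2inv and CBE2mut no member was called by limma voom, and none had an unadjusted p under 0.05, at either scaling, with 1.78% of segments called in each direction scaled to all junctions and 0 scaled to D joins. Over all 6 genotypes the variance of the minor share between genotypes gave p = 8e-05 (permutation test, 100000 draws).

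The junctions of the minor D segments were nearly all deletional D to JH joins, and most ended within 10 bases of the JH-facing end of the D. Deletional joins, in which the DNA between D and JH is lost, were 649 of 649 for the short copies, 2238 of 2246 for the long copies and 2347 of 2349 for Ighd6-1. Inversional joins were 0.356% of joins for the long copies, 0.0851% for Ighd6-1 and 0.190% for functional D segments. The coding end facing JH was missing a median of 4 bases at short copies and of 2 at long copies, Ighd6-1 and functional D segments. From 0 to 10 bases were missing in 89.4%, 93.9%, 93.3% and 84.1% of these joins in that order, and a full end was kept in 13.6%, 28.8%, 25.8% and 32.5%. Short copies have 10 coding bases, so for them this class spans the whole coding part and is not like that of longer D segments. At 39 of the 649 short-copy joins, 13 bases were missing, which lies beyond the coding part. A median of 3 bases lay between the D and JH parts for each kind. With distinct junctions, the medians were 4, 2, 2 and 5 bases and the shares at 0 to 10 bases 88.0%, 91.6%, 91.8% and 64.2%, so that the like medians of long copies, Ighd6-1 and functional D segments hold for reads and not for distinct junctions. Short copies varied between libraries. Of those with at least 10 such joins, WT replicate 1 had a median of 13 missing bases and 18.75% of 16 joins at 0 to 10, and CBE12mut replicate 3 had 64.0% of 75 joins there. CBE1inv replicate 2 gave 141 of the 649 short-copy joins, with all of them at 0 to 10. Joins of a kind share target sequence and PCR products, so these shares are descriptions.

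**Figure D4:**
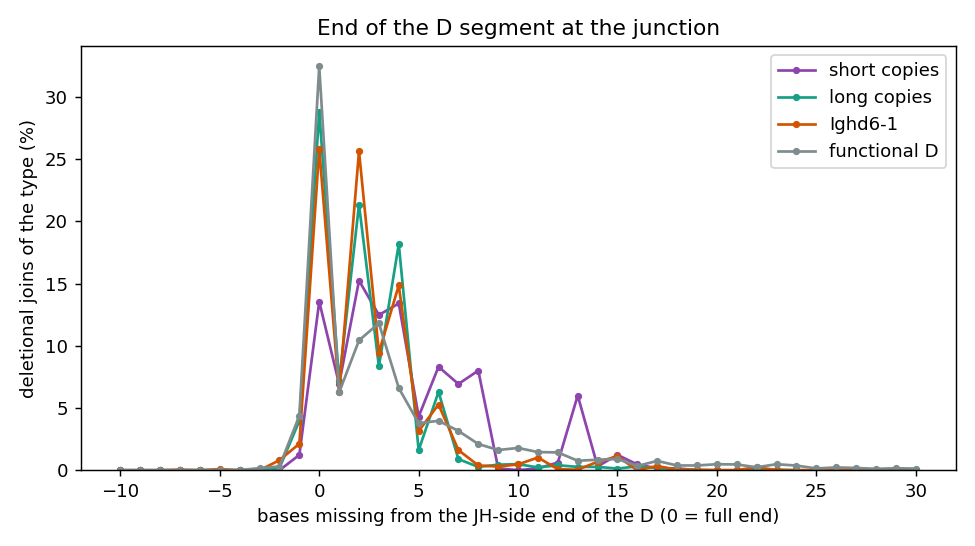
Percentage of deletional joins by the number of bases missing from the JH-facing end of the D, for short copies (649 joins), long copies (2238), Ighd6-1 (2347) and functional D segments (451222), over all 18 libraries. Pooled over libraries, most joins of each kind lie at 0 to 10 missing bases, with a lower peak at the full end for short copies (13.6%). Short copies have 10 coding bases, so 0 to 10 spans their whole coding part.

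Minor D segments were seen far less often inside completed V joins than in D joins. A V join keeps the D it was built on between V and JH. The bases between both parts were therefore searched for D runs of at least 8 bases. All copies of a kind were searched, also those outside the listed sites, in the true orientation and reversed and complemented. A join was given to the kind and orientation with the longest run, and ties were left out. Of 635368 V joins, 415694 were given to a D in the true orientation. The long copies and Ighd6-1 matched in 121 of them, or 0.0291% (Wilson interval 0.0244% to 0.0348%), against 1.16% of D joins. The short copies matched in 57, or 0.0137% (0.0106% to 0.0178%), against 0.297% of D joins. For these groups in that order, the reversed and complemented sequences gave 224 and 287 matches, more than the true orientation. By genotype, matches exceeded reversed ones only for the long copies and Ighd6-1 in CBE1mut, with 49 against 40, and the rest are read as background. In that genotype replicate 2 had 25 against 9, while replicates 1 and 3 had 17 against 23 and 7 against 8. For the functional Ighd4-1, which has 11 coding bases and is nearly as short as the short copies, the search gave 11694 matches, or 2.81% against 7.61% of D joins. For Ighd1-1 it gave 43529, or 10.5% against 17.5%.

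The same gap was seen in single genotypes. In CBE12mut, the long copies and Ighd6-1 made up 3.05% of D joins and 0.0261% (0.0187% to 0.0364%) of V joins with a read D, and Ighd1-1 2.43% and 2.73%. In WT the shares of the long copies and Ighd6-1 were 0.928% and 0.00390% (0.00107% to 0.0142%). Matches to the minor kinds together made up 0.0416% ± 0.0133 of V joins with a read D in CBE12mut against 0.0155% ± 0.000964 in WT. CBE1mut had 0.0591% ± 0.0250 and CBE1inv 0.0498% ± 0.00640 (exact p = 0.1 for each of the 3 against WT). Most of these matches are read as background. The tests therefore compare matches, and cannot tell minor D inside V joins from false matches. At this run length, short-copy matches were fewer than reversed ones in each genotype, with 13 against 65 in CBE1mut. Matches to the long copies and Ighd6-1 were fewer than reversed ones in each genotype other than CBE1mut. Runs of at least 10 bases left 11 matches to long copies or Ighd6-1 and 1 to short copies in all 18 libraries, with 6 and 4 reversed. Of the 11, CBE1inv replicate 2 held 6, with 0 reversed in that genotype, and CBE1mut held 3, also with 0 reversed. A short copy trimmed by more than a few bases cannot give a run of 8, so short copies inside V joins can be missed by this search as well as matched falsely.

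**Figure D5:**
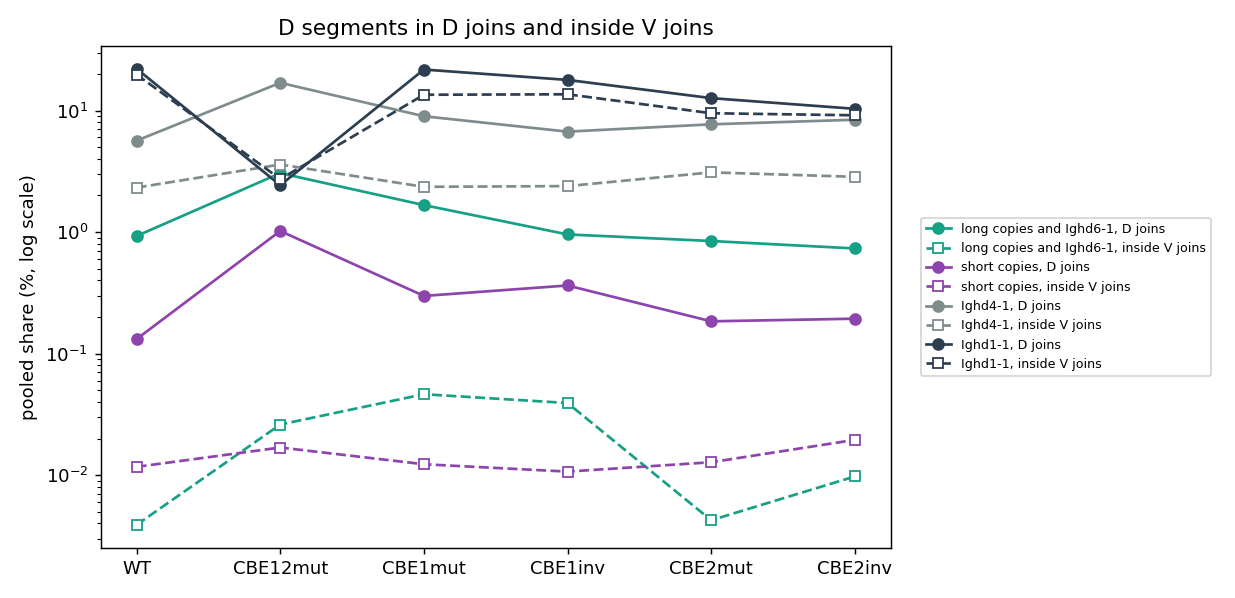
Share of D joins (filled, solid lines) and share of V joins with a read D (open, dashed lines) on a log scale, pooled over the 3 libraries of a genotype, for the long copies with Ighd6-1, the short copies, Ighd4-1 and Ighd1-1. The minor kinds lie below 0.05% inside V joins in all 6 genotypes, while both functional D segments lie above 2%.

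No segment tracked the sum of the members closely. Over the 18 libraries, the segments most like the sum of the members, by Pearson's r of log2(joins per 100000 junctions + 1) among 161 others, were the V segments at 115588829 (0.498), 115876812 (0.483) and 116508321 (0.432). Ighd6-1 gave 44.8% of the summed joins, and per 100000 junctions it fell in CBE12mut while the short and long copies rose. The kinds were not set against other segments one by one. The libraries share genotypes and runs, and these values are descriptions.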

How the data were processed

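The members, lists and tests were chosen with earlier results of these data known. Per the file headers, a deposited line holds the junction of 1 read: positions, orientations and the read sequence, with no abundance of another unit. The labels give a 129 Igh sequence (AJ851868) joined with mm9 as alignment target of the bone marrow libraries, and the submitters' processing notes name Bowtie2, whose version is not given in the sources used here. Junctions were tabulated per segment here, within 100 bp of peaks of at least 50 joins (26 D and 154 V segments). D names and their annotation as functional or pseudogene came from RefSeq through sequence matches in mm9 and spacing. Exact permutation tests, two-sided with 20 relabelings, compared shares. Segments were tested with voom of limma 3.58.1 (R 4.3.3), over all 18 libraries without a block, after a run on simulated data, with all junctions or D joins as library size. All members are named. Same-numbered replicates did not deviate together, with correlations of -0.306 to 0.293. Other libraries of the series were not used here.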

Additional observations from a re-analysis of the deposited data

Results flagged for a closer look

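Joins also appeared at 4 sites that are no members but carry the same kinds of sequence, 3 short copies and 1 long copy identical in its annotated part to Ighd6-2. That long copy differed from Ighd6-1 by 5 edits in 150 bases and from the listed long copies by 11 to 14. The 4 sites held 336 joins in WT and 269 in CBE12mut. CBE1mut had 266 of them and CBE1inv 371, and the counts of the second run were 95 for CBE2mut and 94 for CBE2inv. Their share of D joins was 0.246% ± 0.104 in WT and 0.852% ± 0.0879 in CBE12mut (SD, n = 3), with all CBE12mut libraries above WT, and 0.437% ± 0.146 in CBE1mut, which overlapped WT. Scaled to D joins, 2 of the 4 were called higher in CBE12mut, where 11.8% of all segments were called higher and 1.78% lower. They were the short copies at 114713460 (2.78 ± 0.84, adjusted p = 0.0231, limma voom) and 114718121 (2.58 ± 0.83, adjusted p = 0.0336).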

How the results depend on the processing

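Depth limits the short copies most, and reads per molecule are unknown. Depth may also move shares by distinct junctions, which was not tested. With distinct junctions the CBE2inv minus WT difference per 100 neighbour joins was -1.255, and the CBE1inv minus CBE1mut difference -0.1881. For the minor share of D joins and its ratio to neighbours, the CBE12mut and CBE1mut differences from WT kept their sign except with wider denominators. With all junctions and with V plus D joins as denominator the differences were -0.101 and -0.108 for CBE12mut, -0.1165 and -0.1236 for CBE1mut, and -0.1084 and -0.08757 for CBE2mut against WT, and 0.1244 and 0.1354 for CBE1inv against CBE1mut. The CBE2mut difference from WT was also -0.08144 with D joins other than Ighd4-1 and Ighd1-1 as denominator and -0.6819 with distinct junctions (-0.8525 per 100 neighbour joins), and ranged from -0.02827 to 0.09163 without 1 library at a time. Ighd6-1, lower against WT by all junctions, had log2 changes of 0.5007 in CBE12mut and 0.4917 in CBE1mut scaled to D joins, and of 0.1518 and 0.2281 with median-of-ratios scaling.

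Of the members called with all junctions as library size, CBE12mut had 3 in the reported fit, 5 with identical reads counted once, 7 with D joins as library size, 7 with median-of-ratios scaling, 1 with limma trend, and 1 to 4 without 1 library at a time. CBE1mut had 1, 0 with median-of-ratios scaling, and 1 to 2 without 1 library. CBE1inv had 1, 0 with median-of-ratios scaling or limma trend, 2 with no filter, and 0 to 1 without 1 library. CBE2mut had 1, and 0 with deletional joins only, identical reads once, D joins or V plus D joins as library size, median-of-ratios scaling or limma trend, and 0 to 1 without 1 library. CBE2inv had 1, and 0 with deletional joins only, D joins or V plus D joins as library size, and 0 to 1 without 1 library. CBE1inv against CBE1mut had 0, and 0 to 1 without 1 library. Scaled to D joins, distinct junctions gave 2 for CBE12mut, 0 for CBE1mut and 0 for CBE1inv, with 4 members tested, and leaving out 1 library gave 5 to 6, 0 to 2 and 0 to 1. With the replicate block, the fit scaled to D joins gave 7 members for CBE12mut and 0 for CBE1inv. The cause of these changes was not tested, beyond fewer members or samples tested. The share of all segments called was taken only for the reported fits at both library sizes, and for distinct junctions in CBE12mut. Counts at the other settings cannot be set against such a share, and describe only how calls of members came and went.

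For matches to minor D inside V joins, the CBE1inv minus CBE1mut difference was 0.003653 with runs of at least 10 bases. Without 1 library at a time the CBE2mut minus WT difference ranged from -0.01059 to 0.003677 and the CBE2inv minus WT difference from -0.0004589 to 0.0228.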

Other observations

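Joins at short copies lay at few distinct junctions. The 55 WT joins at short copies lay at 16 distinct junctions and the 165 CBE12mut joins at 30. The 394 and 623 joins at long copies lay at 110 and 131, a like number of joins per distinct junction.

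Joins that fell between D segments of the main array, more than 100 bp from any D segment, numbered 0.854 to 0.954 per 100 D joins in WT and 1.39 to 2.26 in CBE12mut, without overlap.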
